A study of Mus musculus with 6 samples.

Results

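Described here are 10 genes of the early oligodendrocyte lineage, out of 27378 genes listed, in whole brains of mice that received polystyrene nanoplastics through the nose. They are Pdgfra, Cspg4, Olig1, Olig2, Sox10, Gpr17, Bcas1, Enpp6, Neu4 and Nkx2-2, listed from precursor to newly forming oligodendrocyte, and they were found by an exact match of gene symbols. RNA was sequenced from whole brain of male wild-type C57BL/6J mice, a standard inbred strain. The PS group had polystyrene nanoplastics given intranasally over 28 days (3 libraries), and the Control group had sterile distilled water given the same way over the same time (3 libraries). The labels do not say whether each library came from a separate animal, so the spread between libraries may be partly technical. The genes were picked with earlier results of the PS against Control comparison known. Their differences between the groups are therefore given as a description, and the counts of calls given below describe them and test nothing about them.

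Oligodendrocytes make the myelin sheaths of the central nervous system. They arise from precursor cells that persist in the adult brain, divide in response to platelet-derived growth factor and carry its receptor on their surface. Precursors that leave the cycle pass through a committed, premyelinating stage marked by short-lived transcripts before they either die or wrap axons. A small set of transcription factors keeps the lineage identity through all of these stages.

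The 7 genes Cspg4, Olig1, Olig2, Sox10, Gpr17, Enpp6 and Nkx2-2 were higher in every PS library than in any Control library, as were 4.93% of all 12229 genes tested. The 7 were picked on this comparison, and nothing is read from their count. Bcas1 and Neu4 had higher PS means with overlapping groups, and Pdgfra had a slightly lower PS mean. The ratios of the PS mean to the Control mean ran from 0.939 for Pdgfra to 1.53 for Enpp6 and 1.76 for Nkx2-2. In whole-brain RNA, a change in the number of cells of a type and a change in RNA per cell cannot be told apart.

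Values are FPKM, fragments scaled by the length of the gene and the reads of the library. The reads behind them, recovered from the steps of the values, numbered 39239183 to 40335590 per library. A principal component analysis set Control replicate 2 apart, at 17.5 on its first axis (42.3% of the variance), where the other 5 libraries ran from -8.21 to 2.93. Differences without it are given for the early lineage genes that it moves most and for several list medians. They are not given for single genes of the other lists. Among those, Control replicate 2 was the lowest Control library for S1pr5, Gpr37, Nkx6-2, Myrf and Cnp. Markers of the labelled tissue were present: 8 neuronal markers summed to 2081 to 2246 FPKM in PS and 2156 to 2216 in Control, and 15 mature oligodendrocyte markers to 2007 to 2240 in PS and 1495 to 2064 in Control.

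Because FPKM is scaled to gene length, levels can be set side by side between genes. Bcas1 was the most abundant of the 10, with a mean of 67.11 FPKM over the 6 libraries, followed by Olig1 at 59.88. The ranges of these genes over the libraries overlapped. Well below them came Sox10 at 13.3, Olig2 at 10.96, Gpr17 at 8.407 and Pdgfra at 7.484 FPKM, and each of these overlapped the next in its range. Lower still were Neu4 at 1.987, Enpp6 at 1.908 and Cspg4 at 1.881 FPKM, each of which overlapped the next in its range. Nkx2-2 was lowest at 0.8136 FPKM, and its range did not reach that of Cspg4. The order from precursor to newly forming cell was thus not an order of abundance.

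**Figure D1:**
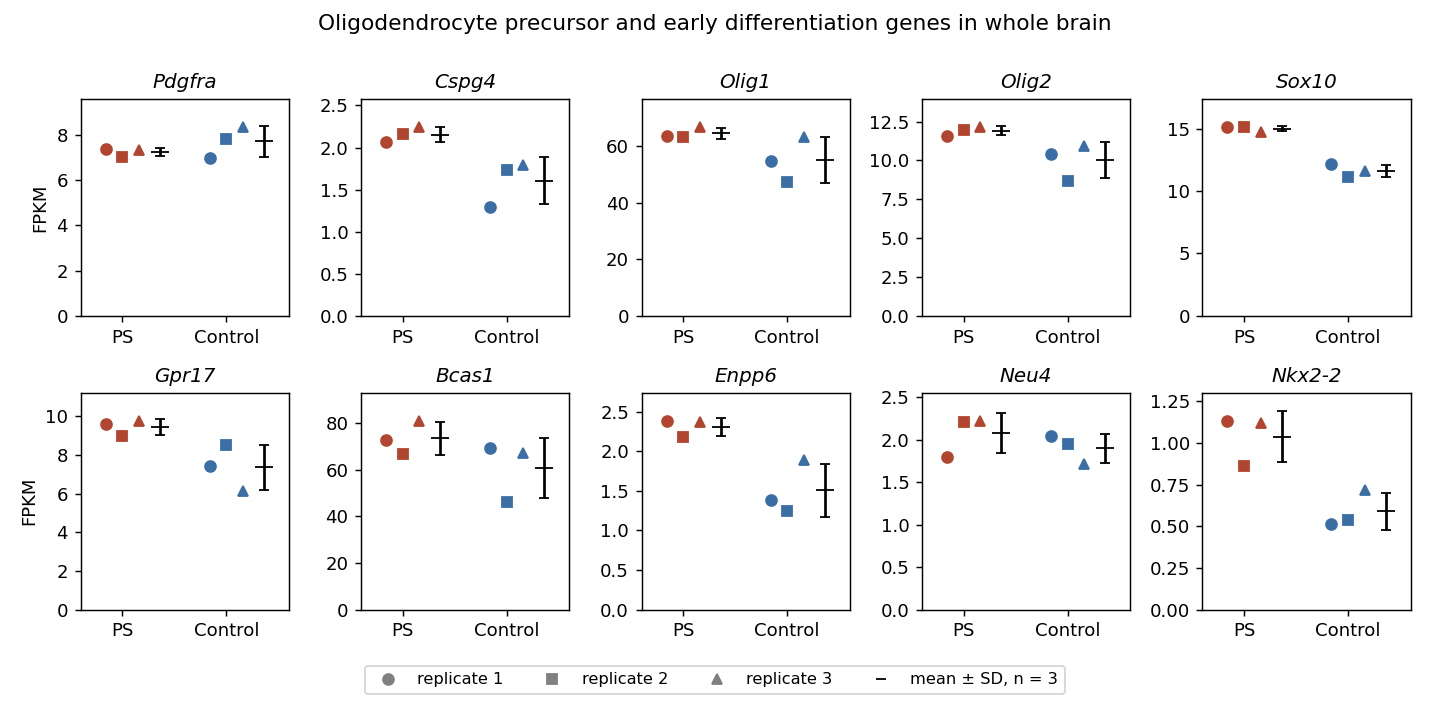
FPKM (vertical axes, from 0) of each of the 10 genes in PS libraries (red, left) and Control libraries (blue, right), with marker shapes for replicates 1 to 3 and the mean ± SD of each group in black (n = 3). Sox10 lies at 14.75 to 15.1 in PS and 11.13 to 12.13 in Control, whereas the groups overlap in Pdgfra, Bcas1 and Neu4.

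The promoters of 3 genes are printed because they stand at the ends of the pattern. Enpp6 and Nkx2-2 had the highest ratios between the groups, and Pdgfra had the lowest. Each sequence holds the 250 bases before the gene's start in RefSeq, 5′ to 3′ on the gene's strand, in build GRCm38.p6, which differs from the GRCm39 build named for the data. Capitals mark matches to the E-box CANNTG, the type of site that basic helix-loop-helix factors such as Olig1 and Olig2 bind, and to ACAANG, a core of the sites that Sox factors bind. Both strands were searched, and no marked matches overlap.
Enpp6, chr8:46986637-46986886, plus strand: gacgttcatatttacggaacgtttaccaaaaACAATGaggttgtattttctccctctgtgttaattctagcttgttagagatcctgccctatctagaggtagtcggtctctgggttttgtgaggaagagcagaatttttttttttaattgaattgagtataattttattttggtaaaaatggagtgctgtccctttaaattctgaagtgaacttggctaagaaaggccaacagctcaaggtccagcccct
Nkx2-2, chr2:147186403-147186652, minus strand: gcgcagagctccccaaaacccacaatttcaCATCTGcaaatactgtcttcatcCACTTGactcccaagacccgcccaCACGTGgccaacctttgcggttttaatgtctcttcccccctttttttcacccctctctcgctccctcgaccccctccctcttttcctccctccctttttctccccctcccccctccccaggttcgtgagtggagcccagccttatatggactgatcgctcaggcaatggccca
Pdgfra, chr5:75152001-75152250, plus strand: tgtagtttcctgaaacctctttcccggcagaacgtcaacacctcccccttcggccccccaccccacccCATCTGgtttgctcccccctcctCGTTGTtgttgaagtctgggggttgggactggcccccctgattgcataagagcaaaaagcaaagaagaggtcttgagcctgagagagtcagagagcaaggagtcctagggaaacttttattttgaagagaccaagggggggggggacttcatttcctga
The Enpp6 window held 1 Sox core and 0 E-boxes, the Nkx2-2 window held 3 E-boxes and 0 Sox cores, and the Pdgfra window held 1 of each. Of the 32851 windows of this length in the table, 66.2% held an E-box and 36.3% a Sox core, so these matches are common. RefSeq windows were matched for 6 of the 10 genes. The other windows, of Cspg4, Olig2 and Neu4, held 0 or 1 match to each motif. GC content was 38.4% in the Enpp6 window, 56.4% in that of Nkx2-2 and 54.4% in that of Pdgfra, against a median of 52.4% over the table.

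Pdgfra encodes the alpha receptor for platelet-derived growth factor, the main mitogen receptor of precursors. It was at 7.358, 7.028 and 7.356 FPKM in PS replicates 1 to 3, against 6.989, 7.834 and 8.34 FPKM in Control replicates 1 to 3. All PS values fell inside the Control range. The log2 fold change of PS over Control, taken on log2(FPKM + 1), was -0.08 (SE 0.07, 95% interval from -0.24 to 0.09), and it ran from -0.14 without Control replicate 1 to -0.03 without Control replicate 3. In GENCODE M21 the exons of Pdgfra share 456 bases with Gm42802 and 166 with Gm42803 on the opposite strand. They share 30 bases with Mir7025 on the same strand, and none of these genes is listed in the data.

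Cspg4 encodes the NG2 proteoglycan, a surface protein of precursors and of pericytes. It was at 2.063, 2.159 and 2.241 FPKM in PS libraries, against 1.289, 1.738 and 1.793 FPKM in Control libraries. The groups did not overlap, and Control replicate 1 was lowest. Its log2 fold change was 0.28 (SE 0.09, 95% interval from 0.07 to 0.49). It was 0.19 without Control replicate 1, and 0.41 with 0.1 FPKM added before the logarithm in place of 1. Both surface genes are also expressed outside the lineage, Cspg4 by pericytes and Pdgfra by meningeal fibroblasts. Of 7 pericyte markers tested out of 8, 4 were higher and 3 lower in PS, with 0 called, and the 8 summed to 53.14 to 65.11 FPKM in PS and 54.29 to 61.22 in Control. Pdgfrb, the pericyte receptor, was higher in each PS library than in any Control library (3.151 ± 0.283 FPKM in PS, 2.673 ± 0.158 in Control), and Rgs5, a regulator of G protein signalling, was lower in each (17.77 ± 1.05 FPKM in PS, 19.47 ± 1.18 in Control). Of 7 fibroblast markers tested out of 8, 6 were higher and 1 lower, with 0 called, and the 8 summed to 49.87 to 63.1 FPKM in PS and 48.42 to 53.26 in Control. The median log2 fold change was 0.15 for the fibroblast markers and 0.06 for the pericyte markers. No marker of either list was listed at 0 in all libraries, and their part in the values of Cspg4 and Pdgfra was not tested.

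Among the transcription factors, Olig2 specifies the lineage and Olig1 acts with it in maturation. Olig1 was at 63.59, 63.4 and 66.79 FPKM in PS libraries, against 54.71, 47.39 and 63.39 FPKM in Control libraries. Control replicate 3 lay just below the lowest PS library, so the groups were separated by very little. This gave a log2 fold change of 0.23 (SE 0.10, 95% interval from 0.02 to 0.45). In GENCODE M21 the exons of Olig1 share 157 bases with Gm15966 on the opposite strand, a gene not listed in the data. Olig2 was at 11.58, 11.98 and 12.13 FPKM in PS libraries, against 10.44, 8.7 and 10.91 FPKM in Control libraries. Again the log2 fold change was 0.23 (SE 0.08, 95% interval from 0.05 to 0.42), and Control replicate 2 was again the lowest library. Without Control replicate 2 the log2 fold changes were 0.13 for Olig1 and 0.14 for Olig2.

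Sox10 encodes the factor that is kept through the whole lineage and activates myelin genes. It was at 15.09, 15.1 and 14.75 FPKM in PS libraries, against 12.13, 11.13 and 11.61 FPKM in Control libraries. The groups were clearly apart, and the values within each were close. The log2 fold change was 0.34 (SE 0.06, 95% interval from 0.21 to 0.47), and it was 0.31 without Control replicate 2.

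Nkx2-2 encodes a homeodomain factor that promotes the step into differentiation. It was at 1.132, 0.8603 and 1.12 FPKM in PS libraries, against 0.514, 0.5377 and 0.7171 FPKM in Control libraries. The groups did not overlap, and PS replicate 2 stood nearest to the Control libraries. Its mean over all libraries was below the 1 FPKM required for testing, so it is 1 of the 10 genes but not of the 9 tested. In a fit without that filter, the log2 fold change was 0.36 (SE 0.08, 95% interval from 0.15 to 0.56). On log2(FPKM + 1) the change of a gene this low is understated, as the ratio of its group means was 1.76. The values rest on 260, 199 and 257 reads in PS libraries, against 117, 121 and 163 reads in Control libraries. The exact Poisson 95% intervals, which cover counting error only, overlapped between the nearest libraries of the groups, at 172.0 to 229.0 reads for PS replicate 2 and 139.0 to 190.0 for Control replicate 3. Those of PS replicates 1 and 3 began at 229.0 and 227.0 reads, above the ends of all 3 Control intervals. Of the gene's exons, 278 bases overlap the opposite-strand gene Nkx2-2os in GENCODE M21. Whether reads were counted by strand is not stated in the labels or processing notes. Nkx2-2os was at 0.2339 to 0.3737 FPKM in PS and 0.1584 to 0.331 in Control.

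Gpr17 encodes an orphan receptor switched on in committed precursors and lost on maturation. It was at 9.63, 8.966 and 9.764 FPKM in PS libraries, against 7.427, 8.495 and 6.161 FPKM in Control libraries. The groups did not overlap, and Control replicate 2 was the highest Control library, the reverse of its place for the Olig genes. Its log2 fold change was 0.33 (SE 0.10, 95% interval from 0.11 to 0.56). Omitting Control replicate 2 raised this change to 0.43. The fit that omitted Control replicate 3, the lowest Control library for Gpr17, lowered it to 0.22. In the same GENCODE release its exons share 188 bases with Lims2 on the opposite strand. Lims2 was at 3.105 to 3.63 FPKM in PS and 2.784 to 3.088 in Control.

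Enpp6 encodes a choline-specific phosphodiesterase that marks newly forming oligodendrocytes. It was at 2.383, 2.178 and 2.37 FPKM in PS libraries, against 1.385, 1.249 and 1.885 FPKM in Control libraries. The groups did not overlap, and Control replicate 3 was nearest to the PS libraries. The log2 fold change was 0.41 (SE 0.10, 95% interval from 0.18 to 0.64), and leaving out Control replicate 2 gave 0.34 and Control replicate 3 gave 0.51. On log2(FPKM + 1) it was the highest of the 9 tested with all libraries. On that scale Gpr17 was above it without Control replicate 2 (0.43), and Bcas1 without Control replicate 1 (0.39 for Bcas1, 0.38 for Enpp6). That scale understates the change of a gene this low. With a pseudocount of 0.1 FPKM in place of 1, the change of Enpp6 was 0.60 with all libraries. The order of these genes with a library left out was not computed at that pseudocount.

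Bcas1 is transiently high in early myelinating cells and stays on in myelin. It was at 72.8, 66.71 and 80.84 FPKM in PS libraries, against 69.34, 46.07 and 66.91 FPKM in Control libraries. The groups overlapped, with PS replicate 2 below 2 of the Control libraries, and Control replicate 2 was far below the rest. Its exons share 440 bases with Bcas1os1 and 34 bases with Bcas1os2, both on the opposite strand, and Bcas1os2 was at 0.2323 to 0.4255 FPKM in PS and 0.279 to 0.3907 in Control. The log2 fold change of 0.29 (SE 0.14, 95% interval from -0.04 to 0.61) was 0.10 without Control replicate 2. Between same-numbered libraries Bcas1 was higher in PS in 3 of 3 pairs, and with the replicate number as a block it was again not called (limma adjusted p = 0.356). Neu4 encodes a sialidase found in brain. It was at 1.799, 2.212 and 2.219 FPKM in PS libraries, against 2.04, 1.947 and 1.708 FPKM in Control libraries. The groups overlapped, with a log2 fold change of 0.09 (SE 0.09, 95% interval from -0.11 to 0.28), which ran from 0.04 without Control replicate 3 to 0.15 without PS replicate 1.

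**Figure D2:**
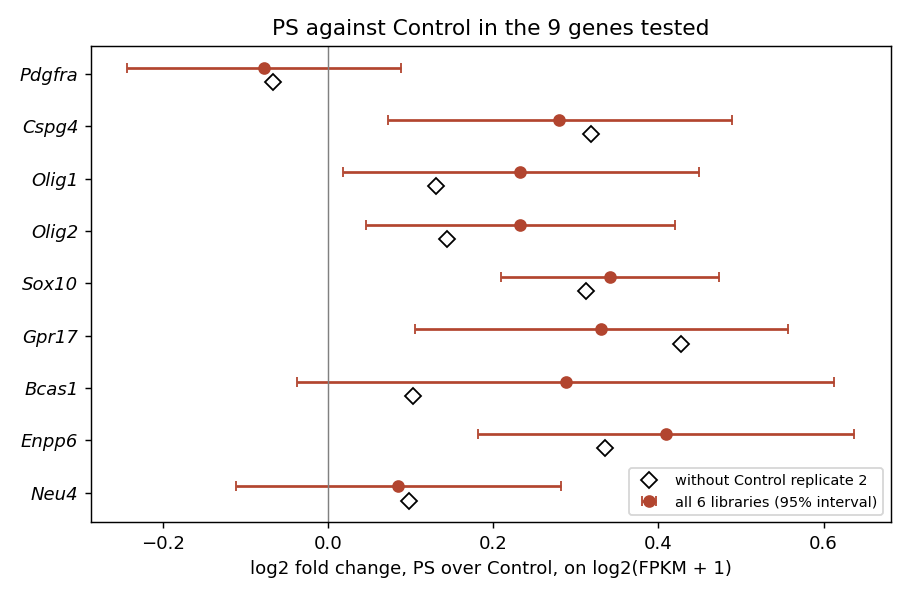
Log2 fold change of PS over Control on log2(FPKM + 1) (horizontal axis) for the 9 genes tested, from all 6 libraries with 95% intervals (red) and without Control replicate 2 (open diamonds). Sox10, Gpr17 and Enpp6 stay above 0.3 both ways, whereas Bcas1 drops to 0.10 and Olig1 to 0.13 without that library. Omitting Control replicate 3 instead (not drawn) puts Gpr17 at 0.22.

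The genes were then read from the fit across all 12229 genes with a mean of at least 1 FPKM. A gene was called at a limma adjusted p under 0.05 (Benjamini-Hochberg over all tested genes). That fit called 20 genes, 0.164% of those tested, and all 20 were lower in PS. With the replicate number as a block it called 48. Of the 9 tested early lineage genes, 0 were called by limma on log2 FPKM and 0 by limma-voom on recovered reads. Each of these fits called 0% of all tested genes higher. With the block 0 of the 9 were called, where 0.0245% of all tested genes were called higher. Sample weights called 5 of them, where 2.43% of all tested genes were called higher, and leaving out Control replicate 3 called 1, where 0.139% were. At an unadjusted p under 0.05, 6 of the 9 were higher, where 2.66% of all tested genes were. Groups without overlap and higher in PS were seen in 6 of the 9, or 66.7%, and in 4.93% of all tested genes. Higher PS means were found in 8 of the 9, against 51.4% of all tested genes. The genes were picked on this comparison, so these counts describe the choice. The median log2 fold change of the 9 was 0.28, beside 0.003 over all tested genes, and without Control replicate 2 it was 0.14.

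The PS libraries resembled each other more than the Control libraries did. The coefficient of variation was smaller in PS than in Control for 9 of the 10 genes, Neu4 being the exception at 11.6% in PS and 9.02% in Control. It was 1.33% in PS and 4.29% in Control for Sox10, 2.94% in PS and 14.5% in Control for Olig1, and 4.97% in PS and 22.2% in Control for Enpp6. With 3 libraries a group this is a description. Set against counting error, the chi-square per degree of freedom of the Sox10 reads was 0.29 in PS and 2.29 in Control, where counting alone gives about 1. For Bcas1 it was 99.3 in PS and 383.0 in Control, so its spread lay far above what its 6539 to 11700 reads per library would give. Among the Control libraries, replicate 2 was lowest for 5 genes (Olig1, Olig2, Sox10, Bcas1 and Enpp6) and highest for 1 (Gpr17). Replicate 3 was the highest for 6 genes.

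**Figure D3:**
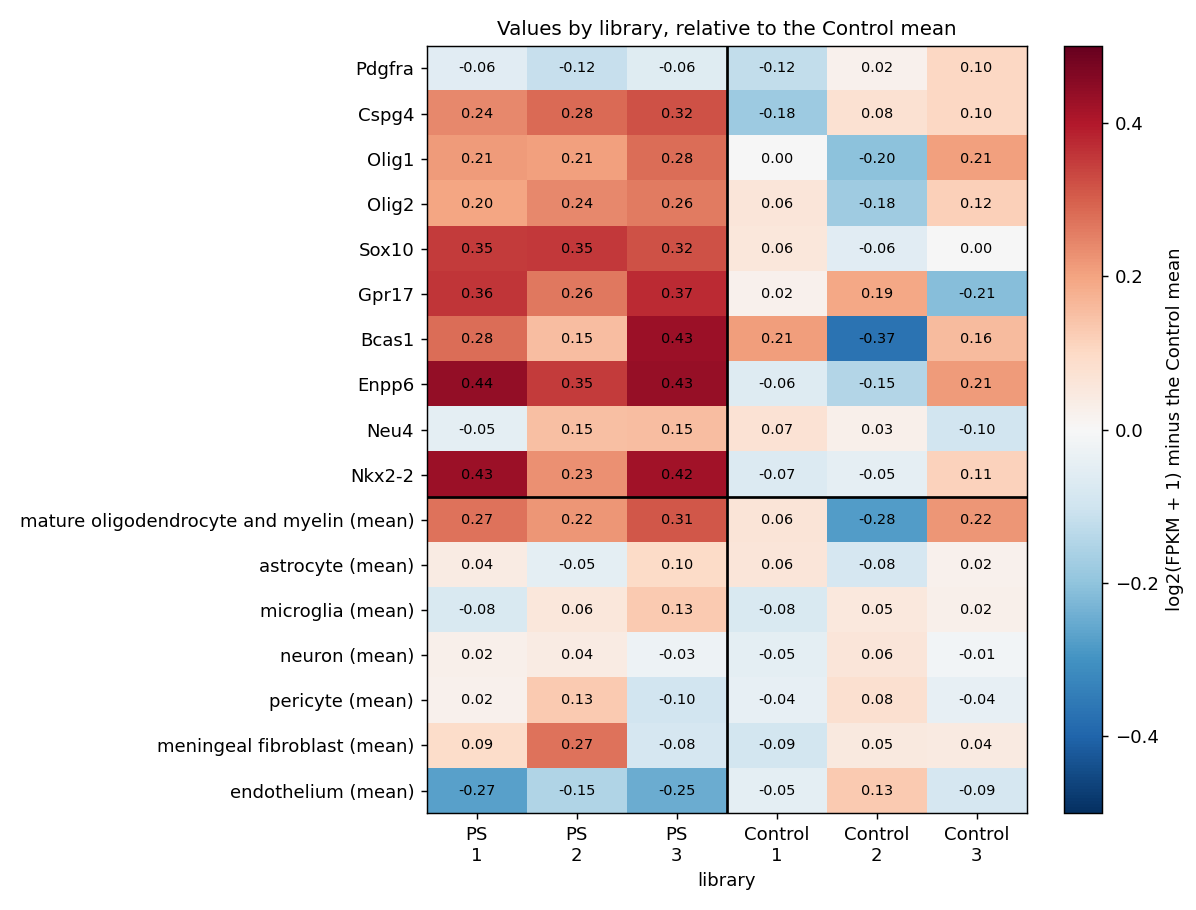
Each cell gives log2(FPKM + 1) minus the mean of the Control libraries, for the 10 genes (upper rows) and as a mean over the tested markers of other cell types (lower rows), with PS libraries on the left and Control libraries on the right. Control replicate 2 is at -0.37 for Bcas1 and -0.28 for the myelin markers, and Gpr17 there is at 0.19.

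Ratios within a library do not depend on how libraries are scaled, and those given here were chosen after the values were seen. Sox10 over Pdgfra was 2.05, 2.15 and 2.0 in PS libraries, against 1.74, 1.42 and 1.39 in Control libraries. Enpp6 over Pdgfra was 0.324, 0.31 and 0.322 in PS libraries, against 0.198, 0.159 and 0.226 in Control libraries. Neither ratio overlapped between the groups. Gpr17 over Pdgfra averaged 1.3 ± 0.026 in PS and 0.962 ± 0.19 in Control, and Cspg4 over Pdgfra 0.297 ± 0.015 in PS and 0.207 ± 0.02 in Control (SD, n = 3 each), likewise without overlap. These share Pdgfra as denominator and are not separate observations. Olig1 over Olig2 was 5.43 ± 0.12 in PS and 5.5 ± 0.29 in Control, with overlapping groups. Sox10 over Olig2 was 1.3, 1.26 and 1.22 in PS libraries, against 1.16, 1.28 and 1.06 in Control libraries, and Control replicate 2 was the 1 Control library inside the PS range.

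The genes were also set against Mbp, which encodes myelin basic protein of mature cells. Enpp6 over Mbp was 0.0043, 0.00422 and 0.00395 in PS libraries, against 0.00262, 0.00331 and 0.00358 in Control libraries, with no overlap. Sox10 over Mbp was 0.0273, 0.0292 and 0.0246 in PS libraries, against 0.023, 0.0295 and 0.0221 in Control libraries. Gpr17 over Mbp was 0.0174, 0.0174 and 0.0163 in PS libraries, against 0.0141, 0.0225 and 0.0117 in Control libraries. For both of these ratios Control replicate 2 was above every PS library, and Control replicates 1 and 3 were below every PS library. Bcas1 over Mbp (0.132 ± 0.0028 in PS, 0.127 ± 0.0046 in Control) overlapped between the groups with or without Control replicate 2. The ratio of Bcas1 to Mbp was nearly the same in all libraries, from 0.122 to 0.135, including Control replicate 2.

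Other genes of the lineage had smaller median differences. Their lists were drawn from general knowledge, but with earlier results of these data known. Of 14 further precursor genes tested out of 16, 11 were higher and 3 lower in PS with 0 called, and their median log2 fold change was 0.07. Tnr, which encodes tenascin-R of the matrix around precursors and neurons, was the 1 gene among them whose groups did not overlap (10.61 ± 0.706 FPKM in PS, 8.473 ± 1.48 in Control, log2 fold change 0.30, limma adjusted p = 0.743). Sulf2, an extracellular sulfatase, C1ql1, a secreted synapse organizer, and Megf11 had log2 fold changes of 0.14, 0.21 and 0.15 with overlapping groups. Of 12 further early differentiation genes tested out of 16, 8 were higher and 4 lower with 0 called, and the median was 0.05.

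In that second list, Bmp4, a signalling protein made transiently by committed precursors, was at 2.269, 2.866 and 1.942 FPKM in PS libraries, against 1.529, 1.931 and 1.495 FPKM in Control libraries. The lowest PS library lay just above the highest Control library, and the log2 fold change was 0.34 (limma adjusted p = 0.685). Sox8, the close relative of Sox10, pointed the other way, its highest PS library lying just below its lowest Control library. It was at 12.88, 13.78 and 15.59 FPKM in PS libraries, against 17.55, 16.19 and 15.61 FPKM in Control libraries (log2 fold change -0.21, limma adjusted p = 0.752). Nkx6-2, a homeodomain factor of oligodendrocytes, was at 10.08 ± 1.53 FPKM in PS and 7.481 ± 1.78 in Control, and Myrf, the regulator that starts myelin gene transcription, at 13.28 ± 0.818 FPKM in PS and 11.1 ± 1.81 in Control, both with overlapping groups.

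Ligands that act on the lineage did not share the direction of the early genes. Of 7 tested out of 10, 1 was higher and 6 were lower in PS, with 0 called and a median log2 fold change of -0.07. Pdgfa, the ligand of the Pdgfra receptor and named here after its values were seen, was at 3.505, 3.555 and 3.715 FPKM in PS libraries, against 3.69, 3.36 and 3.777 FPKM in Control libraries, with overlapping groups. Bdnf, a neurotrophin, had a log2 fold change of -0.21, Fgf2, a growth factor, of -0.17, Pdgfc of -0.10 and Igf1, which favours survival, of -0.07, and the groups overlapped for all 4.

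Of 12 receptors of the lineage, all tested, 8 were higher and 4 lower, with 0 called and a median of 0.04. S1pr5, a sphingosine-1-phosphate receptor of oligodendrocytes, was at 8.27, 7.9 and 8.744 FPKM in PS libraries, against 6.058, 4.913 and 6.887 FPKM in Control libraries (log2 fold change 0.43, limma adjusted p = 0.349). Lpar1, a receptor for lysophosphatidic acid, was at 5.801 ± 0.244 FPKM in PS and 4.953 ± 0.65 in Control (log2 fold change 0.20). The groups did not overlap for S1pr5 and Lpar1, and they overlapped for Smo and Fgfr2, whose log2 fold changes were 0.11 each. Of 7 genes known to hold differentiation back, tested out of 8, 6 were higher and 1 lower, with 0 called and a median of 0.06. Gpr37, a receptor that delays myelination, had a log2 fold change of 0.26, and Hes5, a target of Notch signalling, of 0.24, while Id2 and Id4, inhibitors of helix-loop-helix factors, had 0.08 and 0.06. The groups overlapped for all 4.

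**Figure D4:**
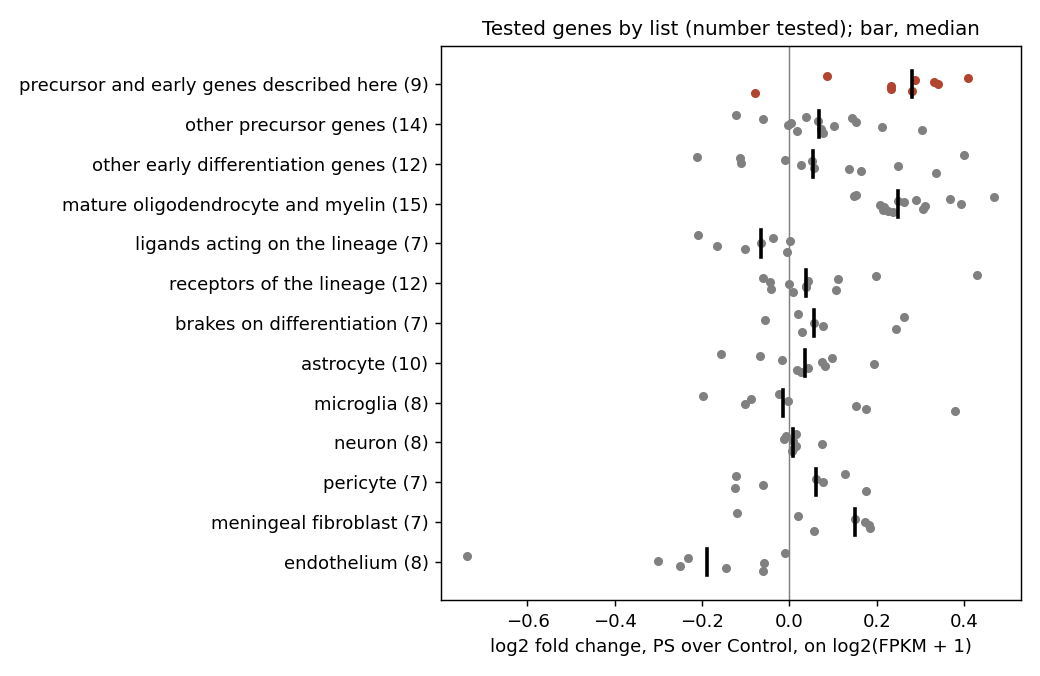
Log2 fold change of PS over Control on log2(FPKM + 1) (horizontal axis) for each tested gene of each list, with the number tested in brackets and a bar at the list median. With all libraries, the early lineage genes described here have a median of 0.28 and the mature myelin genes one of 0.25. Other precursor genes have one of 0.07 and other early differentiation genes one of 0.05. Without Control replicate 2 (not drawn) these medians, as differences of means, were 0.14, 0.11, 0.08 and 0.08.

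Mature oligodendrocyte and myelin markers were higher in PS for 15 of 15 tested genes, with 0 called and a median log2 fold change of 0.25, which was 0.11 as a difference of means without Control replicate 2. Fa2h, a fatty acid hydroxylase of myelin lipids (18.38 ± 1.11 FPKM in PS, 13.07 ± 1.92 in Control), Ugt8a, which makes galactosylceramide (9.211 ± 0.741 FPKM in PS, 6.78 ± 0.59 in Control), and Gal3st1, a sulfotransferase for sulfatide (4.443 ± 0.306 FPKM in PS, 3.563 ± 0.654 in Control), had groups that did not overlap. The groups overlapped for Cnp (167.7 ± 9.71 FPKM in PS, 136.7 ± 26.4 in Control). Mature cells also express Sox10, Olig1 and Bcas1, and their part in the values of these genes was not tested.

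Dividing precursors could not be followed. Mki67, a marker of cycling cells named after its values were seen, was at 0.07309 to 0.1339 FPKM in PS and 0.06877 to 0.1441 in Control. Of 8 cell division genes, Mcm2 and Pcna alone were abundant enough to test, with log2 fold changes of 0.05 and -0.03, and 0 were called.

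Other cell types were measured beside these genes. Astrocyte markers were higher for 7 and lower for 3 of 10 (median 0.03, summed level 913.4 to 1009.0 FPKM in PS and 884.0 to 1017.0 in Control). Microglia markers were higher for 3 and lower for 5 of 8 (median -0.01, summed level 174.5 to 210.6 FPKM in PS and 188.7 to 204.5 in Control), with Cx3cr1, the fractalkine receptor, higher without overlap at 11.31 ± 0.512 FPKM in PS and 8.48 ± 0.849 in Control. Neuronal markers were higher for 6 and lower for 2 of 8 (median 0.01). Endothelial markers were lower for 8 of 8 (median -0.19, summed level 82.69 to 92.18 FPKM in PS and 94.74 to 111.3 in Control), with 1 called, Vwf. Without Control replicate 2, the medians, as differences of means on log2(FPKM + 1), were 0.06 for the 8 neuronal markers, 0.02 for the astrocyte markers, 0.11 for the pericyte markers and 0.06 for the receptors of the lineage. They were 0.17 for the meningeal fibroblast markers, -0.02 for the microglia markers and -0.14 for the endothelial markers, beside 0.14 for the early lineage genes. No marker of these lists was at 0 in all libraries. Of 6 markers of other tissues, Acta1 of muscle (3.675 to 6.63 FPKM in PS, 3.015 to 4.299 in Control) and Omp of olfactory neurons (1.507 to 3.999 FPKM in PS, 2.464 to 4.648 in Control) reached a mean of 1 FPKM.

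The tested genes whose course over the 6 libraries came closest to the mean course of the 9 early lineage genes were Pifo, Nol3, Irgm2, Gna12, Dab2 and Rtn4ip1. Likeness was measured as the root mean square difference between centred log2(FPKM + 1) values, which was 0.033 to 0.038 for these 6, beside a median of 0.15 over the 12220 other tested genes. Gna12, a G protein subunit, was at 30.75, 29.86 and 31.68 FPKM in PS libraries, against 27.74, 24.18 and 27.26 FPKM in Control libraries. None of the 6 is a member of the lists used here. Among the 9 themselves, Olig2 lay nearest to their common course at 0.056, followed by Sox10 at 0.071 and Olig1 at 0.08. Pdgfra, Gpr17 and Bcas1 lay farthest at 0.17 each, which is above the median of other genes. The 9 thus did not follow a single course: the groups overlapped for Pdgfra, Gpr17 departed within the Control libraries, and Bcas1 followed the low myelin values of Control replicate 2.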

How the data were processed

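Each library came as a table of FPKM computed by the authors, with 27378 genes. Per the submitters' processing notes the build was GRCm39 and the tools included HTSeq, HISAT2, fastp and R 3.2.0; their order, settings and strand are not stated. Read totals and gene lengths that make the FPKM values whole reads were searched for, and 26555 of 26556 genes above 0 came out whole within 0.02 reads. Genes with a mean of at least 1 FPKM (12229) were compared as log2(FPKM + 1), without rescaling, by limma 3.58.1 in R 4.3.3 (two-sided, group as the only term, with a variance trend, Benjamini-Hochberg adjustment; 4 residual degrees of freedom). The fit was tested on simulated data with independent noise in each gene and library. Those data held no outlying library and no pairing, so they do not show how the fit behaves with either. With 3 libraries a group, the smallest p of an exact permutation test is 0.1. Samples were grouped by title. Same-numbered libraries deviated together from their group means (Pearson correlation across genes 0.181, 0.185 and 0.161, each above 0.1). A fit with the replicate number as a block is therefore given as an alternative. The main fit, which gave the SE and interval of each tested gene, leaves the numbers out. No correlation was computed between differently numbered libraries and the labels name no pairing, so whether the numbers pair libraries is not settled. Genes and lists were chosen with earlier results of these data known. All 10 early lineage genes are named, up to 4 genes with the lowest unadjusted p per list, and the 6 nearest profiles, passing over predicted genes. Exon overlaps come from GENCODE M21, of build GRCm38. The alternatives changed the filter, pseudocount, scaling or variance model, or used sample weights, the block, limma-voom on recovered reads and each library left out. The result of 1 marker list is not reported here.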

Additional observations from a re-analysis of the deposited data

How the results depend on the processing

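The number of genes called over the whole table was 20. It was 1 with no filter, 9 with a mean FPKM of at least 5, 632 with sample weights and 48 with the replicate block. With 1 library left out it ran from 0 (without PS replicate 2) to 66 (without Control replicate 3), and it was 2 without Control replicate 1 or PS replicate 1. Of the early lineage genes 0 were called, 5 were with sample weights (Cspg4, Olig1, Sox10, Gpr17 and Enpp6, where 2.43% of all tested genes were called higher), and 0 to 1 with 1 library left out. The 1 was Enpp6 without Control replicate 3 (log2 fold change 0.51, limma adjusted p = 0.0457, beside 0.00634 to 0.999 over its alternatives). The median log2 fold change of the early lineage genes, 0.28, ran from 0.14 (without Control replicate 2) to 0.33 with 1 library left out. The replicate block cannot move a fold change in this balanced design, so its 0.28 tells nothing further. Higher PS means were found for 8 of 9 genes with 1 library left out, and for 5 of the 6 genes that passed a mean of 5 FPKM. The 1 reversal was Pdgfra, at 0.026 with sample weights. The replicate block changed no call of these genes. The causes were not tested. Cspg4, Enpp6 and Neu4 fall below 5 FPKM and have no value under that filter.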
